A study of Rattus norvegicus with 14 samples.

Results

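The transcriptome of the rat retina at dusk was compared with that at dawn, in 4 of the 14 libraries of a series on rat pineal glands and retinas. Dusk was ZT13, 1 h before lights off, and ZT15, 1 h after lights off. Dawn was ZT23, 1 h before lights on, and ZT1, 1 h after lights on. ZT (zeitgeber time) counts hours from lights on. The libraries were chosen by these labelled times alone, and all genes were compared. The animals were Sprague-Dawley rats of 6 to 8 weeks kept on a 14:10 lighting cycle, with no other treatment or allele in the labels. Each of the 4 libraries was made from polyadenylated RNA of retinas pooled from 10 rats. Each side holds 1 library in light and 1 in darkness, so the light state at collection is balanced between dusk and dawn. The light of the preceding hours is not balanced. Both dusk libraries follow the light phase and both dawn libraries the dark phase, which cannot be told apart from time of day here. The series also holds retinas at ZT7 and ZT19, pineal glands at the same 6 times and mixed tissue pools at ZT7 and ZT19.

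Rods and cones take over different parts of the day. Around lights off the retina passes from cone to rod vision, and around lights on rods shed the tips of their outer segments and dopamine release from amacrine cells rises. Cyclic AMP in photoreceptors is made by adenylyl cyclase, is broken down by phosphodiesterases, and is lowered by dopamine through D4 receptors. A molecular clock of transcription factors (Arntl and Clock as activators, Per and Cry proteins as repressors) runs in several retinal cell types.

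Each time had 1 library, so the pair of times on either side of a light switch served as the replicates of dusk or of dawn (n = 2 each), and their spread holds the 2-h step, the switch of light and the spread between pools. Values are FPKM (fragments per kilobase of transcript, scaled to the library's own total). A level below is an FPKM, and a difference is the mean of dusk minus that of dawn on the log2(FPKM + 1) scale, positive where dusk was higher. The fold given with it is on the FPKM + 1 scale. A gene is called higher when limma's moderated test gave a Benjamini-Hochberg adjusted p under 0.05 over the 9569 genes tested. An exact permutation test of 2 against 2 libraries cannot give a two-sided p below 0.333, so each call rests on the spread that limma shares across genes.

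Summed FPKM of the 4 libraries lay between 152281 (ZT23) and 161184 (ZT1), and 9387 to 9516 genes reached 1 FPKM. A rough estimate from rare transcripts placed the depth of ZT1, ZT13 and ZT15 at 0.435, 0.560 and 0.593 of that of ZT23, so low values at ZT1 carry the largest counting error. Correlations of log2 values between these libraries lay between 0.977 and 0.989 across genes, which are not independent replicates. Rod and cone markers were present, with Gnat1, the alpha subunit of rod transducin, at 2294 FPKM or more in each library and Opn1mw at 10.6 FPKM or more. Of the marker lists of other tissues, lens markers moved most with the comparison (their summed level was 258 and 269.5 FPKM at dusk, 453 and 916 FPKM at dawn), and their values stand below. In bulk tissue, fewer cells of a type and less RNA per cell cannot be told apart.

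In the test, 124 genes (1.3%) were higher at dusk and 172 (1.8%) higher at dawn, together 296 genes (3.09%). At an unadjusted p under 0.05 there were 980 and 687 genes. Differences of at least 2-fold were reached by 13 of the dusk and 31 of the dawn genes. A stricter description without a test asks that each library of one side be at least 1.5-fold above each of the other. That held for 45 genes at dusk (0.47%) and 58 at dawn (0.606%). Without the 1.5-fold margin, dusk and dawn did not overlap in all 296 genes called and in 4700 of all genes tested. Groups that do not overlap therefore add nothing to a call. The median difference of all genes tested was 0.03. Light against darkness within the same 4 libraries gave 0 calls (0%) in limma's test, with 69 genes higher in darkness and 201 higher in light at an unadjusted p under 0.05. That fit held no term for dusk and dawn, so their difference added to its error. Its 0 calls therefore cannot show that light had no effect.

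A fit with 1 library left out takes each gene's own spread from the remaining pair alone. A call can thus be lost while its difference hardly moves, as for Per1 (0.47 without ZT13, 0.52 without ZT15, 0.49 with all 4 libraries). The number of calls depended on single libraries. It was 27 at dusk and 57 at dawn without ZT13, and 33 and 80 without ZT15. Without ZT23 it was 239 and 386, and without ZT1 it was 441 and 309. With the error estimated together with the 4 pineal libraries of the same times it was 45 and 66. Of the 296 genes, 11 dusk and 26 dawn genes passed under every one of the 14 alternatives in which they were tested, and are said below to hold throughout.

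**Figure D1:**
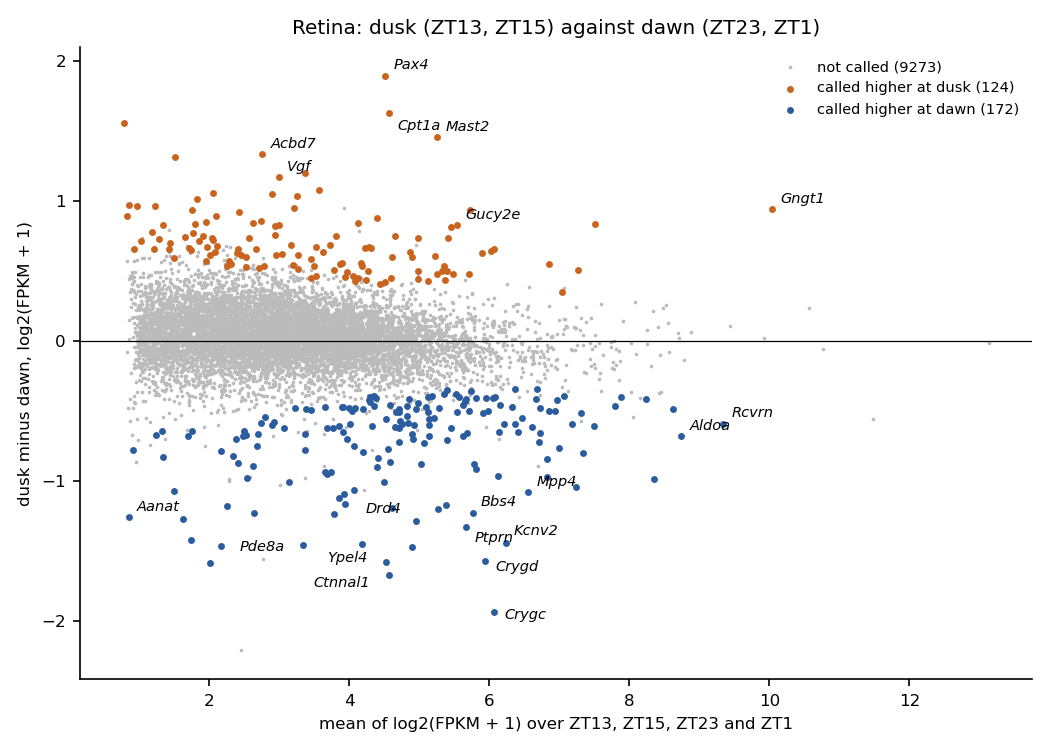
Difference between dusk and dawn (vertical axis, log2 of FPKM + 1) against the mean level over the 4 libraries (horizontal axis, log2 of FPKM + 1) for the 9569 genes tested in the retina. Each point is a gene. Orange points are the 124 genes called higher at dusk, blue points the 172 called higher at dawn, and grey points the others; Pax4 lies at the top and the lens gene Crygc lowest of the genes called.

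Among the genes with the largest rise towards dusk were those of a transcription factor, a lipid-oxidation enzyme and a kinase. Pax4, a paired-box transcription factor of photoreceptors and pancreatic islets (rn4, chr4:55313500-55318995), stood at 44.8 FPKM at ZT13, 41.5 at ZT15, 9.81 at ZT23 and 12.01 at ZT1. Both dusk libraries lay well above both dawn libraries, and the difference was 1.89 (SE 0.11, adjusted p = 0.000137, 3.72-fold). Cpt1a, the carnitine transferase that lets long-chain fatty acids into mitochondria (rn4, chr1:205852800-205912972), stood at 40.8, 40.7, 11.8 and 13.2 FPKM in the same order. It was 3.09-fold higher at dusk (difference 1.63, SE 0.09, adjusted p = 0.000137), with the 2 libraries of each side close together. Mast2, a microtubule-associated kinase (rn4, chr5:136573518-136717367), stood at 62.5, 62.0, 21.0 and 23.2 FPKM, 2.75-fold higher at dusk (1.46, SE 0.08, adjusted p = 0.000137). Pax4 and Mast2 hold throughout; the call of Cpt1a was lost with the error shared with the pineal gland (adjusted p = 0.130, range over the alternatives 5.63e-10 to 0.130).

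Further dusk genes were lower in level. Vgf, the precursor of secreted neuropeptides, stood at 11.4 and 10.5 FPKM at ZT13 and ZT15 and at 4.85 and 3.81 at ZT23 and ZT1 (1.17, SE 0.12, adjusted p = 0.00301). Acbd7, an acyl-CoA binding protein, stood at 8.96 and 10.6 against 3.20 and 3.31 FPKM (1.34, SE 0.12, adjusted p = 0.00127). Eml1, a microtubule-binding protein, stood at 13.9 and 15.4 against 5.08 and 6.66 FPKM (1.198, SE 0.13, adjusted p = 0.00301). In each of these 3 genes the groups were apart, as in every gene called, and each holds throughout. Of the other genes with the 12 largest differences, Rgs20, which shortens signalling by the G protein Gz, stood at 12.6 FPKM in both dusk libraries and at 4.81 and 6.56 at dawn (1.04, adjusted p = 0.00657). The mRNA of Gz itself, Gnaz, went the other way, with 14.0 and 14.7 FPKM at dusk and 29.4 and 26.1 at dawn (-0.90, adjusted p = 0.00235). Both calls were lost with the error shared with the pineal gland (adjusted p = 0.138 and 0.0890), and that of Rgs20 also without the filter on low values (0.0690); the alternatives gave them adjusted p values of 1.09e-06 to 0.138 and 1.98e-06 to 0.0890.

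The remaining dusk genes of largest difference reported here were Best2 (a bestrophin anion channel, 1.06), Tmem116 (a transmembrane protein, 1.05) and RGD1307355 (an uncharacterised gene, 1.31). All 3 lay below 10 FPKM in each of the 4 libraries. RGD1307355 stood at 0.703 and 0.908 FPKM at ZT23 and ZT1. It therefore passed the filter of 1 FPKM through its dusk libraries alone, as did Mir3556b, and its call is uncertain. Mir3556b was listed at 2.32 and 1.60 FPKM at dusk and at 0 at ZT23, ZT1, ZT7 and ZT19. Its span in the table is a single microRNA hairpin (rn4, chr13:110968040-110968146), whose value rests on few fragments, so its call is uncertain and no fold is given. Best2 missed the threshold without ZT13 (adjusted p = 0.0505) or ZT15 (0.0881), and Tmem116 without ZT13 (0.0673) or ZT15 (0.0567), within ranges over the alternatives of 1.32e-05 to 0.139 and 1.13e-06 to 0.130. RGD1307355 was lost without the filter on low values (adjusted p = 0.0997, range 0.000115 to 0.0997).

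Apart from lens genes, the largest dawn differences included those of a potassium channel subunit, a phosphodiesterase and 2 proteins of less known function. Kcnv2 codes for a silent subunit of the potassium channel of photoreceptor inner segments (rn4, chr1:230834883-230849285). It stood at 43.7 FPKM at ZT13, 45.5 at ZT15, 126 at ZT23 and 119.6 at ZT1, a 2.72-fold difference (-1.44, SE 0.08, adjusted p = 0.000137). Ctnnal1, an alpha-catenin relative (rn4, chr5:74716087-74771424), stood at 10.9, 13.7, 47.8 and 35.2 FPKM (-1.67, SE 0.15, adjusted p = 0.00154). Ypel4, a yippee family protein (rn4, chr3:67945794-67947571), stood at 11.8, 12.8, 38.0 and 39.4 FPKM (-1.58, SE 0.08, adjusted p = 0.000137). Neither library of dawn came near those of dusk in these 3 genes.

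Pde8a, a phosphodiesterase that breaks down cyclic AMP (rn4, chr1:137415852-137544337), stood at 4.70 and 5.48 FPKM at dusk and at 15.8 and 15.5 at dawn (-1.46, SE 0.10, adjusted p = 0.000542). Ptprn, a membrane protein of dense-core secretory vesicles (rn4, chr9:74528095-74542756), stood at 32.8 and 29.6 against 78.5 and 81.0 FPKM (-1.33, SE 0.08, adjusted p = 0.000218). Kcnv2, Ctnnal1, Ypel4, Pde8a and Ptprn hold throughout. Irak2, an adaptor kinase of interleukin-1 signalling, was low, at 0.920 and 1.146 FPKM at dusk and 5.63 and 3.46 at dawn (-1.42, adjusted p = 0.00848). Pla2g1b, a secreted phospholipase, stood at 1.22 and 2.28 against 6.36 and 6.55 FPKM (-1.47, adjusted p = 0.00550). The calls of Irak2 and Pla2g1b were lost without the filter on low values (adjusted p = 0.0860 and 0.0716) and with the pineal error (0.318 and 0.0864), the highest of their alternatives.

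**Figure D2:**
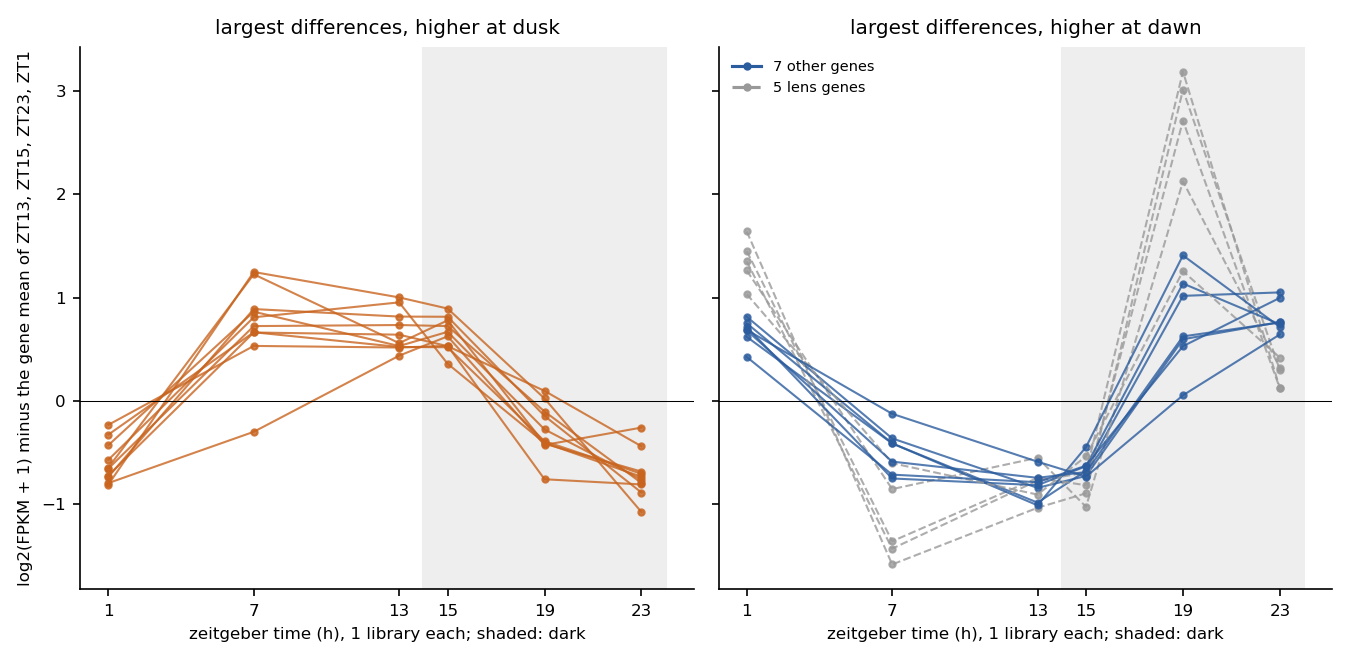
Level of the genes with the largest differences at all 6 retina times (horizontal axis, zeitgeber time in h; vertical axis, log2 of FPKM + 1 minus the gene's mean over ZT13, ZT15, ZT23 and ZT1), 1 library per time. Lines are genes called higher at dusk (left, without Mir3556b and a gene not reported here) or at dawn (right); dashed grey lines are lens genes, which are highest at ZT19, and shading marks darkness.

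The libraries at ZT7 and ZT19 took no part in the comparison and show where in the day these genes stand. At ZT7, in the middle of the light, 116 of the 124 dusk genes (93.5%) were nearer their dusk level than their dawn level, against 58.6% of all genes tested. At ZT19, in the middle of the dark, 23 of them (18.5%) were nearer dusk, against 42.2% of all genes tested. Pax4 was at 53.3 FPKM at ZT7 and 22.2 at ZT19, Mast2 at 62.0 and 34.5, and Cpt1a at 43.0 and 20.4. Their dusk level was thus already present 6 h before ZT13, and it was lower 4 h after ZT15. Best2 differed from the other dusk genes of largest difference, with 2.37 FPKM at ZT7 against 4.63 and 5.41 at ZT13 and ZT15.

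Of the 172 dawn genes, 20 (11.6%) were nearer dusk at ZT19, against 42.2% of all genes tested. At ZT7, 116 of them (67.4%) were nearer dusk, not far from the 58.6% of all genes tested. Pde8a stood at 21.1 FPKM at ZT19 and 4.97 at ZT7, and Kcnv2 at 114.8 and 48.9. Ptprn was intermediate at both, with 51.8 and 45.6 FPKM. Among the called genes, 15.3% of dusk and 14.5% of dawn genes were at least 4-fold higher in retina than in mixed tissue at ZT7, against 2.04% of all genes tested. Their median level over the 4 libraries was 9.03 FPKM for dusk and 27.4 FPKM for dawn genes, and 7.27 FPKM for all genes tested.

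Promoter windows of the current rat assembly were read for 2 dusk and 2 dawn genes, to show the letters searched for motifs of the clock (E-box CACGTG, D-box TTATGTAA or TTACGTAA, ROR element TAGGTCA), of cyclic AMP (CRE TGACGTCA), of the photoreceptor factor CRX (TAATCC) and of heat shock factor (its heat shock element, HSE), on both strands. Each window runs from 250 bases before to 50 after a transcript start (RefSeq, GRCr8), on the gene's strand, and capitals mark matches. Vgf (chr12:25276971-25277270, minus strand) held an E-box at -65 and a CRE at -90. Tmem116 (chr12:40735184-40735483, minus strand) held a CRX motif at -92, and Aanat (chr10:102326073-102326372, plus strand), a dawn gene described below, one at -106. Kcnv2 (chr1:234412924-234413223, plus strand) held no match.
Vgf: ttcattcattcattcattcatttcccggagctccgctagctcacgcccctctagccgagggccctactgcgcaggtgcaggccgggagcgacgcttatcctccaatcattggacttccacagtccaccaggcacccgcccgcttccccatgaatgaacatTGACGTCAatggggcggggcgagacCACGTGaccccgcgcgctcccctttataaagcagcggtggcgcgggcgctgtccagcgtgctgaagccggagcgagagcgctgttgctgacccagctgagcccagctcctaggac
Tmem116: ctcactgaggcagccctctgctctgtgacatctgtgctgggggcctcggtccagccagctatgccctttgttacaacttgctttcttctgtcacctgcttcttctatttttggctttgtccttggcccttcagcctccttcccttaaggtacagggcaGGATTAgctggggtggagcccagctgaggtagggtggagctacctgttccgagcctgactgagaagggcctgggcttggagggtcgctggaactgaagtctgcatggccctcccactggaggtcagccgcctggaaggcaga
Kcnv2: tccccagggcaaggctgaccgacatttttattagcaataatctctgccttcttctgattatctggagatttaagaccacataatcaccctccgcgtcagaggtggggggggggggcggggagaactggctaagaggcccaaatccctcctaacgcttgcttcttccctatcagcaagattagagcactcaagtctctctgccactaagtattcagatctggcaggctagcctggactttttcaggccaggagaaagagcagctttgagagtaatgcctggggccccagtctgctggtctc
Aanat: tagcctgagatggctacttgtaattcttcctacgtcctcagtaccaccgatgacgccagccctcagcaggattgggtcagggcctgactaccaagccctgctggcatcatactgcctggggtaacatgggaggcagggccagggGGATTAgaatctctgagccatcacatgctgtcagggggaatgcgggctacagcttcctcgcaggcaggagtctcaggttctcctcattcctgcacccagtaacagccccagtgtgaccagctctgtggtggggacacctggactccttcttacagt

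Windows were found for 7840 of the 9569 genes tested, 96 dusk genes and 146 dawn genes among them; where a gene had several windows, the first listed was used. The E-box was in 9.67% of all windows, 11.5% of dusk and 6.85% of dawn windows. The CRX motif was in 5.36%, 10.4% and 4.79%, and the CRE in 3.51%, 4.17% and 2.05%. The ROR element was in 1.65%, 2.08% and 2.05%. The D-box was in 0.599% of all windows and in 0 windows of called genes, and the heat shock motif in 0.446% of all windows, 1 of the dusk and 0 of the dawn windows. Among the genes named here, the CRX motif was also in the windows of the called genes Gngt1, Guca1a, Opn4, Cplx4, Rgr, Ndufa4 and Mip. It was in that of Opn1sw too, which was not called. Pde8b held an E-box at -22 and Ppargc1a a CRE at -181. Of genes not called, Th held a CRE at -69, Arntl a ROR element at -16 and Per2 a D-box at -192. The windows of Pax4, Cpt1a, Mast2, Acbd7, Eml1, Ctnnal1, Ypel4, Pde8a and Ptprn held no match. A match is a description of these letters and was not tested.

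Among the genes of rod phototransduction, 3 of 23 tested were higher at dusk and 3 higher at dawn. Of all genes tested, 1.3% were higher at dusk and 1.8% at dawn, and these shares are the background of each list count below. The median of the list was -0.02 (0.03 for all genes tested). Gngt1, the gamma subunit of rod transducin, stood at 1512 and 1406 FPKM at dusk and at 715 and 802 at dawn. This was the most abundant of the called genes, 1.92-fold higher at dusk (0.94, SE 0.11, adjusted p = 0.00423). The other rod transducin subunits did not pass. Gnat1, the alpha subunit, went the other way, at 2294 and 2426 against 3212 and 3753 FPKM (-0.56, adjusted p = 0.0732). Gnb1, the beta subunit, differed by 0.10 (adjusted p = 0.622). Gucy2e, a guanylate cyclase that makes the cyclic GMP of photoreceptors, stood at 62.8 and 59.2 against 34.7 and 33.1 FPKM (0.83, SE 0.08, adjusted p = 0.00170). Guca1a, the calcium sensor that switches this cyclase, stood at 187 and 179.6 against 119 and 139 FPKM (0.51, adjusted p = 0.0293). The mRNAs of Gucy2e and Guca1a were thus both higher at dusk, the latter with a fragile call (below). Their relatives Gucy2f and Guca1b were tested in the same list and not called.

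On the dawn side stood Kcnv2, described above, and recoverin. Kcnj14, an inward rectifier potassium channel, was also higher at dawn (82.2 and 95.0 against 122 and 124 FPKM, -0.48, adjusted p = 0.0303). Of the 22 potassium and calcium channel genes tested 3 were higher at dawn, Kcnv2 and Kcnj14 among them, and 0 higher at dusk, with a list median of 0.04. Rcvrn, a calcium sensor of photoreceptors, stood at 539 and 517 against 758 and 835 FPKM (-0.59, adjusted p = 0.0183). Gucy2e holds throughout. Gngt1 was lost without the filter on low values (adjusted p = 0.126, range 7.12e-05 to 0.126) and with the pineal error (0.0737). Guca1a (adjusted p = 0.210 and 0.118), Rcvrn (0.109 and 0.117) and Kcnj14 (0.314 and 0.0567) were lost without ZT13 and without ZT15, and without the filter (0.135, 0.167 and 0.129). Guca1a and Kcnj14 were also lost with the pineal error (0.0864 and 0.0560) and without the mean-variance trend (0.0865 and 0.0921), and Kcnj14 after quantile normalization (0.0899).

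**Figure D3:**
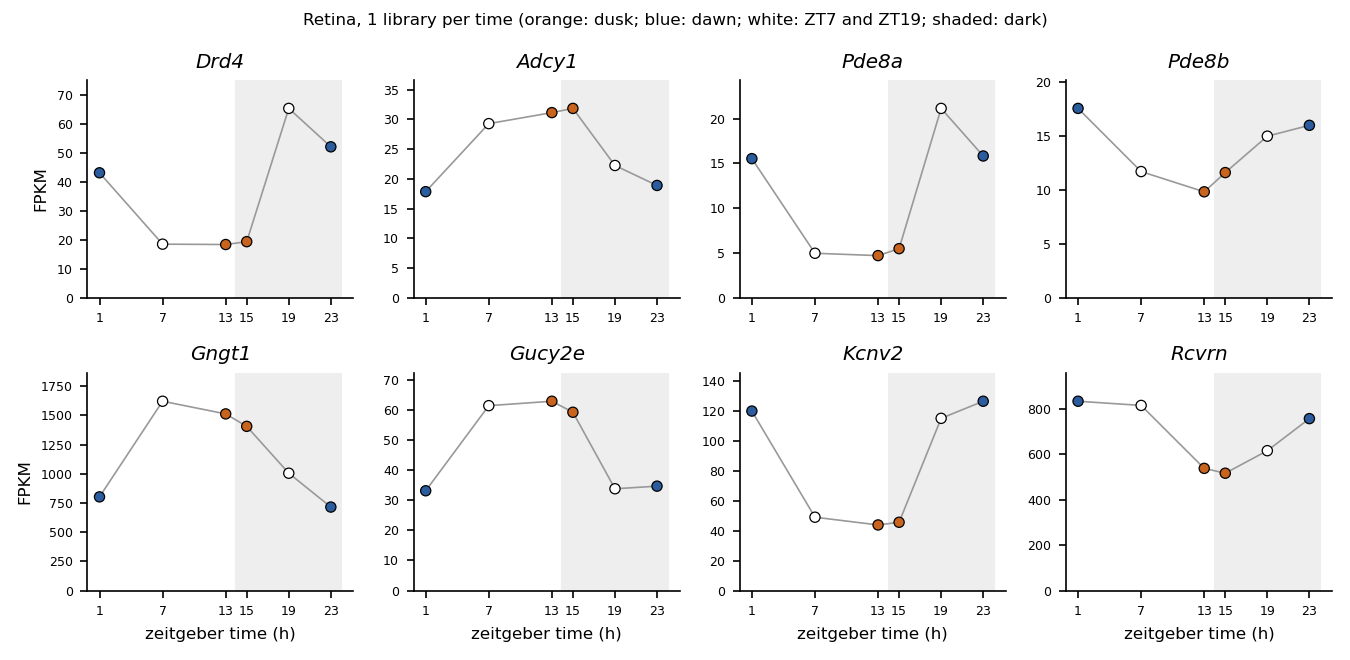
FPKM (vertical axes, each from 0) of 4 genes of dopamine and cyclic AMP signalling (top) and 4 photoreceptor genes (bottom) at the 6 retina times (horizontal axes, zeitgeber time in h), 1 library per point. Orange points are dusk, blue points dawn, white points ZT7 and ZT19, and shading marks darkness; Drd4, Pde8a, Pde8b, Kcnv2 and Rcvrn are low in the orange points and Adcy1, Gngt1 and Gucy2e high.

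Of 9 cone phototransduction genes tested 1 was higher at dusk and 0 at dawn (1.3% and 1.8% of all genes tested, list median -0.04). This was Opn1mw, the middle-wave cone opsin, at 15.8 and 18.5 against 11.9 and 10.6 FPKM (0.56, SE 0.11, adjusted p = 0.0328). Opn1sw, the short-wave cone opsin, stood at 7.10 and 9.68 against 12.5 and 13.4 FPKM (-0.59, adjusted p = 0.0642) and Arr3, cone arrestin, at 17.5 and 27.9 against 13.4 and 11.4 (0.79, adjusted p = 0.0682), and neither passed. Both passed with light as a covariate (adjusted p = 0.0393 and 0.00747) and without ZT23 (0.00880 and 0.00154) or ZT1 (0.0214 and 0.0110). Opn1sw also passed without ZT15 (0.0280, range 0.00880 to 0.375) and Arr3 without ZT13 (0.00739, range 0.00154 to 0.226). Opn1mw was lost without ZT13 (0.0735) or ZT15 (0.215), and also without the filter (0.129), without the trend (0.0775), with the pineal error (0.0845) and under quantile normalization (0.0626) or median ratio scaling (0.0506). Opn4, melanopsin of intrinsically light-sensitive ganglion cells, stood at 9.35 and 9.91 against 6.34 and 3.87 FPKM (0.83, adjusted p = 0.0493), and passed in 5 of 14 alternatives; it was lost among others without ZT13 (0.145) or ZT15 (0.155), in a range from 7.84e-06 to 0.185.

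Of 20 genes of outer segment structure and the visual cycle, 1 was higher at dusk and 2 at dawn (1.3% and 1.8% of all genes tested, list median 0.04). Prom1, a disc membrane protein, stood at 56.8 and 59.2 against 77.5 and 76.1 FPKM (-0.40, adjusted p = 0.0298). Rgr, an opsin of Muller glia and pigment epithelium that serves the visual cycle, stood at 10.05 and 8.65 against 15.9 and 13.99 FPKM (-0.62, adjusted p = 0.0243). The summed level of 10 pigment epithelium markers, Rgr among them, was 127 and 115 FPKM at dusk and 144 and 134 at dawn. The single markers were mixed. Of the 8 tested, 3 differed towards dusk (median -0.03, range -0.62 to 0.80). At an unadjusted p under 0.05 in limma's test, 2 were higher at dusk and 3 at dawn. The part of these markers in the result was not tested. Prom1 and Rgr were lost without ZT13 (adjusted p = 0.318 and 0.0534) or ZT15 (0.172 and 0.144), without the filter (0.0904 and 0.107), without the trend (0.102 and 0.0570) and with the pineal error (0.285 and 0.0611), and Prom1 also after quantile normalization (0.0667). Of 12 genes of outer segment phagocytosis 0 passed in limma's test in either direction (median 0.03), with 0 at dusk and 1 at dawn at an unadjusted p under 0.05.

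Several other dawn genes with a known place in photoreceptors were noted after their values were seen. Mpp4, a scaffold of the photoreceptor synapse, stood at 62.1 and 65.7 FPKM at dusk and 141 and 131 at dawn (-1.08, SE 0.08, adjusted p = 0.000569). Bbs4, a part of the complex that sorts proteins to cilia, stood at 32.3 and 36.8 against 84.4 and 79.7 FPKM (-1.23, SE 0.09, adjusted p = 0.000542). Esrrb, an orphan nuclear receptor of rods, stood at 39.6 and 39.9 against 71.3 and 80.2 FPKM (-0.91, adjusted p = 0.00154). Slc6a6, the taurine transporter, stood at 97.4 and 95.7 against 169.8 and 159.9 FPKM (-0.76, adjusted p = 0.00227). Dawn lay above dusk in both libraries of each, as in every gene called higher at dawn, and all 4 hold throughout. Mak, a kinase of the photoreceptor cilium, was higher at dawn by less (34.9 and 33.7 against 53.7 and 52.7 FPKM, adjusted p = 0.00517), and was lost without ZT15 (0.0531, range 0.00011 to 0.0531). On the dusk side Crb1, a polarity protein at the outer limiting membrane, stood at 37.5 and 33.9 against 24.4 and 27.6 FPKM (0.44, adjusted p = 0.0467), and was lost among others without ZT13 (0.374) or ZT15 (0.124).

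Photoreceptor and retinal transcription factors gave 1 dusk call, Pax4, and 1 dawn call among 18 tested, with 9 of the 18 differences above 0. The dawn gene was Mef2d, a MADS-box factor of rods, at 30.5 and 28.9 against 40.6 and 47.5 FPKM (-0.55, adjusted p = 0.0237). It was lost without ZT13 (0.106), ZT15 (0.140), the filter (0.0999), the trend (0.0748) or with the pineal error (0.170).

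In dopamine and cyclic AMP signalling Drd4, Pde8a and Pde8b were higher at dawn and Adcy1 higher at dusk. Drd4, the D4 dopamine receptor of photoreceptors (rn4, chr1:201485597-201488784), stood at 18.3 and 19.3 FPKM at dusk and at 52.0 and 43.0 at dawn, 2.44-fold higher at dawn (-1.29, SE 0.10, adjusted p = 0.000922). Adcy1, a calcium-stimulated adenylyl cyclase, stood at 31.1 and 31.9 against 18.9 and 17.8 FPKM and was higher at dusk (0.75, SE 0.08, adjusted p = 0.00301). Pde8b, the relative of Pde8a, stood at 9.84 and 11.6 against 16.0 and 17.6 FPKM (-0.60, SE 0.11, adjusted p = 0.0254). Adcy1, Pde8a and Pde8b were the only calls among 22 genes of cyclic AMP signalling tested (1 at dusk, 2 at dawn, median -0.10). Of all genes tested 1.3% were called at dusk and 1.8% at dawn.

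Of 11 genes of dopamine and melatonin handling 0 were higher at dusk and 2 at dawn (1.3% and 1.8% of all genes tested, list median -0.10): Drd4 and Aanat. Aanat, which makes the precursor of melatonin, stood at 0.0831 and 0.249 FPKM at dusk and at 2.47 and 1.23 at dawn (-1.26, SE 0.21, adjusted p = 0.0236). These are levels of few fragments, and with a pseudocount of 0.1 or 5 FPKM the difference was -2.87 or -0.40. Aanat passed the filter of 1 FPKM through its dawn libraries alone, so its call is uncertain. Th, the rate-limiting enzyme of dopamine synthesis, stood at 3.57 and 2.77 against 2.41 and 2.40 FPKM (0.28, adjusted p = 0.330). Drd4 and Pde8a hold throughout. Adcy1 was lost with the pineal error (adjusted p = 0.612, range 1.5e-05 to 0.612). Pde8b and Aanat were lost without ZT13 (0.196 and 0.101), without the filter (0.108 and 0.116) and with the pineal error (0.146 and 0.138), and Pde8b without the trend (0.0621).

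Of the core clock genes, Per1 alone passed between dusk and dawn. Of 4 activators tested 0 passed in limma's test (median -0.12, 0 at dusk and 1 at dawn at an unadjusted p under 0.05), and of 7 repressors 1 was higher at dusk and 0 at dawn (median 0.09). Arntl, the partner of Clock, stood at 24.5 and 25.5 FPKM at dusk and 29.0 and 30.8 at dawn (-0.25, SE 0.08, adjusted p = 0.165). Its groups did not overlap, as in 4700 of the 9569 genes tested, and the difference did not pass. Per1 stood at 17.9 and 17.2 against 11.6 and 12.8 FPKM (0.49, SE 0.09, adjusted p = 0.0298). This call was lost without ZT13 (0.232), ZT15 (0.137), the filter (0.0945) or the trend (0.0731) and with the pineal error (0.504), in a range from 0.00164 to 0.504. Per3 (0.31, adjusted p = 0.0908), Cry1 (0.34, 0.127), Cry2 (0.09, 0.631), Per2 (0.06, 0.844), Clock (-0.11, 0.608) and Npas2 (-0.03, 0.938) did not pass.

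Among output factors and kinases of the clock, 0 of 9 were higher at dusk and 1 higher at dawn (median 0.14). Csnk1e, a casein kinase that phosphorylates Per proteins, stood at 15.9 and 17.4 FPKM at dusk and 34.5 and 28.1 at dawn (-0.86, SE 0.11, adjusted p = 0.00656), and missed the threshold only without the filter (0.0642, range 1.48e-06 to 0.0642). Its level at ZT19 was 51.6 FPKM. Nr1d1, the repressor of Arntl, stood at 46.1 and 47.1 against 53.1 and 61.8 FPKM (-0.29, adjusted p = 0.150). Dbp stood at 41.5 and 42.8 against 32.4 and 37.4 FPKM (0.27, adjusted p = 0.174), and Nfil3, which binds the same motif, at 4.50 and 3.77 against 5.31 and 5.22 (-0.29, adjusted p = 0.256). Nr1d1 passed without ZT23 (0.00891, range 0.00891 to 0.565), and Dbp (0.0140, range 0.0140 to 0.555) and Per3 (0.0450, range 0.0450 to 0.525) without ZT1.

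Immediate early genes rise within minutes of a stimulus. For Egr1 and Fos the 2 dusk libraries were the farthest apart. Egr1 stood at 11.3 FPKM at ZT13 and 600.1 at ZT15, 169.9 at ZT23 and 47.3 at ZT1 (-0.08, SE 1.46, adjusted p = 0.988). Fos stood at 4.14, 51.0, 25.1 and 19.6 FPKM (-0.50, SE 0.83, adjusted p = 0.805). The library 1 h after lights off was the highest and the one 1 h before it the lowest for both genes. Both genes passed in opposite directions when a dusk library was left out. Without ZT13 they were higher at dusk (2.73 and 1.17, adjusted p = 0.0401 and 0.00751), and without ZT15 higher at dawn (-2.88 and -2.17, adjusted p = 0.0265 and 0.000279). The highest adjusted p of any alternative was 0.997 for Egr1 and 0.878 for Fos. Of 15 immediate early genes tested 0 were higher at dusk and 1 at dawn (median -0.09). Nr4a1, an orphan nuclear receptor, stood at 6.17 and 12.3 against 19.7 and 20.8 FPKM (-1.12, adjusted p = 0.0490), and passed in 7 of 14 alternatives (lost among others without ZT13 at 0.0506, up to 0.517). Junb stood at 5.59 and 9.77 against 15.0 and 9.80 FPKM (-0.64, adjusted p = 0.224); it passed with light as a covariate (0.00907) and without ZT1 (0.00265, range 0.00265 to 0.747).

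Glycolysis was the pathway list with the most calls on one side. Of 20 genes tested 7 were higher at dawn and 0 at dusk, against 1.8% of all genes tested on the dawn side, and 3 of the 20 differences were above 0. The median was -0.20 against 0.03 for all genes tested. Aldoa, an aldolase, stood at 359.8 and 317 FPKM at dusk and 513 and 570.4 at dawn (-0.68, SE 0.10, adjusted p = 0.0127). Pgk1, phosphoglycerate kinase, stood at 62.1 and 56.9 against 91.1 and 89.3 FPKM (-0.59, SE 0.08, adjusted p = 0.00787). Pfkp and Pfkl, subunits of phosphofructokinase, differed by -0.51 and -0.47 (adjusted p = 0.0183 and 0.0328). The other 3 were Gpi (-0.40, adjusted p = 0.0428), Tpi1 (-0.41, 0.0497) and Hk2 (-0.34, 0.0497), each by less than 1.5-fold. In all 7 genes both dawn libraries lay above both dusk libraries, as they did in every gene called higher at dawn.

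These glycolytic calls were fragile. All 7 were lost without ZT15 (adjusted p 0.0812 to 0.256), 5 of them also without ZT13 (0.107 to 0.424), and all 7 without the filter on low values (0.0543 to 0.160). All but Aldoa and Pgk1 were lost with the pineal error, after quantile normalization and without the trend. Genes that did not pass were among others Ldha (0.06, adjusted p = 0.770), Slc2a1, the glucose transporter (-0.04, 0.810), and Eno1 (-0.22, 0.222). Gapdh was listed below 0.57 FPKM in each library, and was not tested, although all cells use it, so low values in this table need care.

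Genes of energy metabolism outside that list were noted after their values were seen. Got1 and Mdh1, cytosolic enzymes of the malate-aspartate shuttle, were higher at dawn: Got1 stood at 77.2 and 79.4 against 118 and 122 FPKM (-0.61, adjusted p = 0.00517) and Mdh1 at 138 and 125 against 178 and 200.4 (-0.52, adjusted p = 0.0268). Ndufa4, a subunit of cytochrome oxidase, stood at 201 and 269 against 503 and 421 FPKM (-0.98, adjusted p = 0.0122). Ppargc1a, a coactivator of mitochondrial genes, was higher at dusk (9.24 and 9.23 against 5.82 and 5.49 FPKM, 0.62, adjusted p = 0.0173), like Cpt1a. Got1 was lost without ZT13 (0.0666), and Ndufa4 without the filter (0.119). Mdh1 and Ppargc1a were lost without ZT13 (0.1003 and 0.1199) or ZT15 (0.191 and 0.0929), without the filter (0.130 and 0.0781) and with the pineal error (0.117 and 0.0675), Mdh1 also without the trend (0.0830).

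Of 20 synaptic vesicle and ribbon genes 2 were higher at dusk and 3 at dawn (1.3% and 1.8% of all genes tested, list median 0.01). Rims2 and Unc13b, active zone proteins that prime vesicles, were higher at dusk: 28.2 and 30.1 against 19.2 and 18.7 FPKM for Rims2 (0.60, adjusted p = 0.00863), and 15.3 and 15.5 against 10.5 and 10.6 for Unc13b (0.51, 0.0221). Cplx4, the complexin of photoreceptor ribbon synapses, stood at 135 and 156 against 235 and 208 FPKM (-0.61, adjusted p = 0.0194). Rab3a (-0.50, adjusted p = 0.0121) and Syp, synaptophysin (-0.41, 0.0337), both vesicle proteins, were also higher at dawn. The 5 list members were lost without ZT13 (0.0534 for Rims2 to 0.319 for Syp), and all but Cplx4 without ZT15 (0.0863 to 0.186). Without the filter, without the trend and with the pineal error Unc13b, Cplx4, Rab3a and Syp were lost, and Cplx4 (0.0604) and Syp (0.0647) also after quantile normalization.

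Of 20 amino acid stress genes 2 were higher at dusk and 0 at dawn (1.3% and 1.8% of all genes tested, list median 0.14). Asns, asparagine synthetase, stood at 14.0 and 12.9 against 7.80 and 8.37 FPKM (0.67, SE 0.10, adjusted p = 0.0112), and at 29.3 at ZT7. Atf5, a transcription factor of that response, stood at 10.97 and 7.74 against 4.27 and 5.37 FPKM (0.82, adjusted p = 0.0392). Asns was lost without ZT13 (0.106) or the filter (0.0629), and Atf5 passed in 9 of 14 alternatives (up to 0.210, without ZT13). Of 16 endoplasmic reticulum chaperone genes 1 was higher at dawn, Sel1l, a part of the complex that removes misfolded proteins (32.8 and 31.3 against 52.5 and 53.4 FPKM, -0.71, adjusted p = 0.00301), and it holds throughout. Of 4 cold-inducible RNA-binding genes 1 was higher at dusk, Rbm3 (25.1 and 22.01 against 12.6 and 16.4 FPKM, 0.67, adjusted p = 0.0320, lost without ZT13 at 0.198 and without ZT15 at 0.0567, and passing in 9 of 14 alternatives). Of 7 thyroid hormone genes 1 was higher at dusk, Dio2, the activating deiodinase (1.85 and 2.44 against 0.877 and 0.895 FPKM, 0.73, adjusted p = 0.0375, lost with the pineal error at 0.133, without the filter at 0.126 and after quantile normalization at 0.0692). Both dawn values of Dio2 lay below 1 FPKM. It therefore passed the filter through its dusk libraries alone, and its call is uncertain.

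Of 10 genes of hypoxia and growth factors 1 was higher at dawn, Stat3, a transcription factor of cytokine signalling (11.5 and 10.6 against 18.4 and 17.4 FPKM, -0.65, adjusted p = 0.00945, lost without ZT15 at 0.0753, without the filter at 0.0545 and with the pineal error at 0.0848). Ccng1, cyclin G1, a p53 target noted after its values were seen, stood at 70.1 and 74.6 FPKM at dusk and 38.6 and 36.1 at dawn (0.94, adjusted p = 0.00112) and holds throughout. Aqp1, a water channel also noted afterwards, went the other way (22.9 and 23.1 against 39.7 and 46.5 FPKM, -0.88, adjusted p = 0.00301) and holds throughout too. In the lists of glucocorticoid response (13 tested, median -0.02), cytosolic heat shock (17 tested, median -0.09) and cholesterol synthesis (20 tested, median 0.02) 0 genes passed in either direction by limma's test. At an unadjusted p under 0.05 there were 2, 1 and 0 genes of these lists at dusk and 1, 3 and 0 at dawn.

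**Figure D4:**
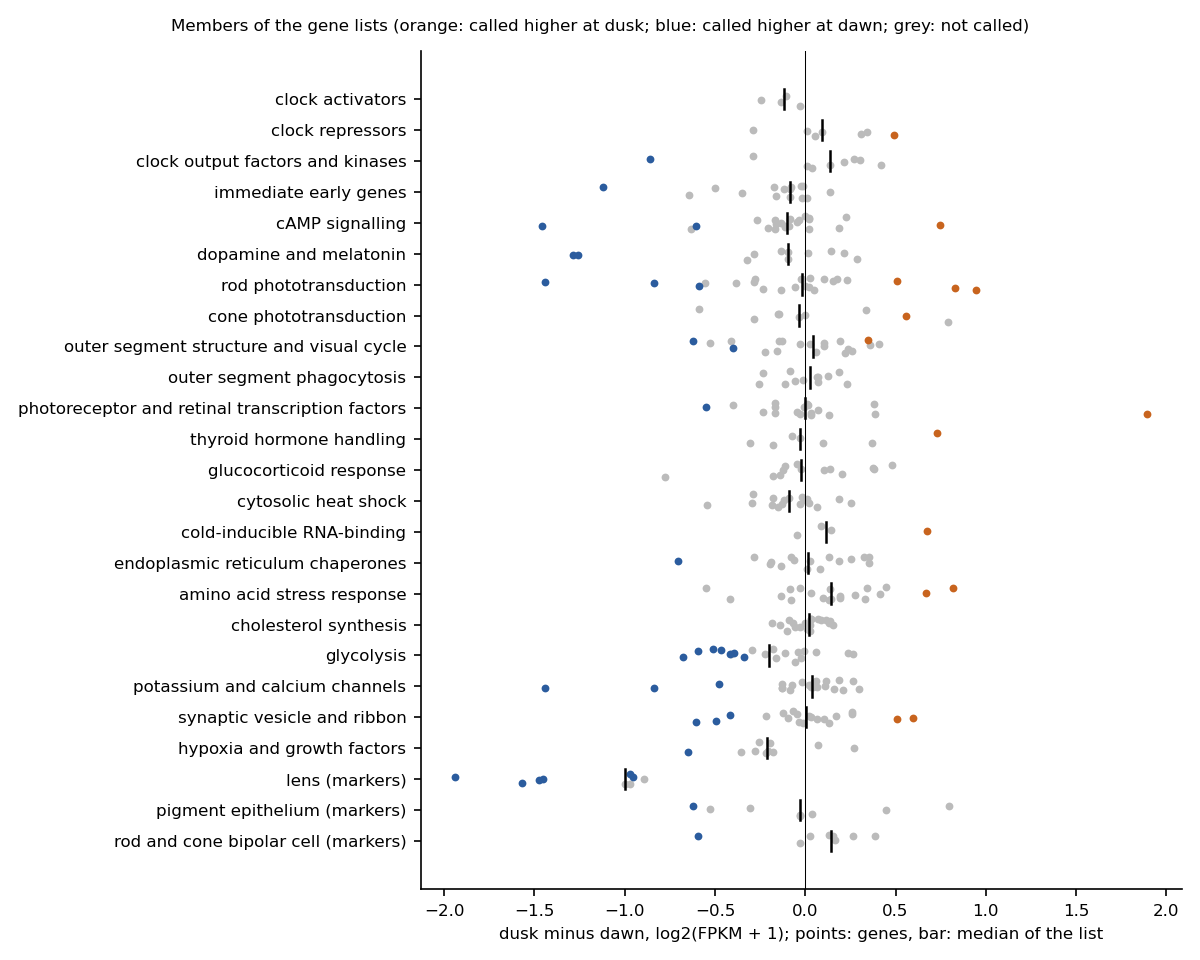
Differences between dusk and dawn (horizontal axis, log2 of FPKM + 1) of the tested members of 22 pathway lists and 3 marker lists (rows) in the retina. Each point is a gene, orange if called higher at dusk and blue if called higher at dawn, and the black bar is the median of the list; glycolysis and lens stand left of 0, at -0.20 and -0.9998.

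Of 9 lens markers tested 6 were higher at dawn and 0 at dusk (1.8% and 1.3% of all genes tested), with a median of -0.9998. Crygc, a gamma crystallin of lens fibres, stood at 31.6 and 35.0 FPKM at dusk, 81.3 at ZT23 and 208 at ZT1 (-1.94, SE 0.34, adjusted p = 0.0262). Crygd (-1.57), Crygb (-1.47), Cryba2 (-0.97), Mip, the fibre water channel (-1.45), Lim2 (-0.95) and, outside the list, Lenep (-1.58) were called too. The ZT1 library was above ZT23 in each of these genes, and without ZT1 the difference of Crygc was -1.26, that of Crygd -0.90 and that of Crygb -0.86. The summed level of the lens markers at ZT19, outside the comparison, was 1897 FPKM, and 228 at ZT7. Crystallin genes are similar to each other and their single values are uncertain. How much lens tissue entered each pool was not measured, and its part in these calls was not tested. Crygc was lost without ZT13 (adjusted p = 0.0663), and Crygd, Crygb, Cryba2 and Lim2 without ZT13 (0.106 to 0.134) or ZT15 (0.0633 to 0.101). Lenep was lost without ZT15 (0.0746). All 7 were lost without the filter (0.0902 for Mip to 0.208 for Crygd), all but Mip without the trend (0.0621 to 0.105), and all but Mip and Lenep with the pineal error (0.0694 to 0.163). Crygd and Crygb passed in 5 of 14 alternatives.

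Other cell types gave few calls. Pcp2, a marker of rod and cone bipolar cells, stood at 119 and 116 against 155 and 204 FPKM (-0.60, adjusted p = 0.0430) and passed in 7 of 14 alternatives (lost among others without ZT13 at 0.170 or ZT15 at 0.166, up to 0.757), while the other 7 bipolar markers did not pass and the list median was 0.14. In the marker lists of rods, horizontal cells, amacrine cells, Muller glia, astrocytes, microglia, blood, vessels, ciliary body, muscle, oligodendrocytes and cornea 0 of 42 tested genes passed in limma's test, with 4 higher at dusk and 2 at dawn at an unadjusted p under 0.05. No cornea marker reached the filter. The 4 tested markers of choroid, ciliary body and iris all differed towards dusk (median 0.28), 2 of them at an unadjusted p under 0.05 in limma's test. Of the 4 tested markers each of blood, microglia and vessels, 0 lay above 0 (medians -0.15, -0.18 and -0.06). How much of such tissue entered each pool was not measured, and its part in the result was not tested.

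The same times were compared in the pineal gland, whose cells share many photoreceptor genes with the retina, in a model of 8 libraries that tests the difference between the tissues. The dusk to dawn difference was not the same in both tissues for 582 of 10318 genes (5.64%), 278 of them more towards dusk in the retina and 304 more towards dawn. Of the retina genes called, 97 of 124 at dusk and 113 of 172 at dawn had the same sign in the pineal gland, against 5489 of all 9569 genes. The count of differing genes was 149, 160, 223 and 235 without retina ZT13, ZT15, ZT23 and ZT1, and 302, 287 and 1134 without pineal ZT13, ZT15 and ZT1.

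Pax4 was higher at dusk in both tissues, and by more in the pineal gland (2.62 against 1.89, difference -0.72, adjusted p = 0.0424). Gngt1 showed 0.92 there against 0.94 in the retina, and no difference between the tissues was detected (difference 0.02, SE 0.27, adjusted p = 0.979). Of the clock genes named, Nr1d1, Dbp, Nfil3, Arntl, Npas2 and Cry1 differed between the tissues, and for Per1, Per2, Per3, Cry2 and Clock no difference was detected (adjusted p = 0.534, 0.787, 0.308, 0.854 and 0.765). Nr1d1 was 2.33 higher at dusk in the pineal gland (68.8 and 68.3 against 12.2 and 13.4 FPKM) and -0.29 in the retina (difference -2.62, SE 0.13, adjusted p = 0.000136). Dbp showed 2.21 against 0.27 (difference -1.94, adjusted p = 0.00330) and Arntl -1.48 against -0.25 (difference 1.23, adjusted p = 0.0177). Drd4 was higher at dawn in both, with -4.395 for the pineal gland and -1.29 for the retina (difference 3.11, SE 0.30, adjusted p = 0.00133).

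Several retina genes moved without a matching difference in the pineal gland. Kcnv2 was below 1 FPKM in the 4 pineal libraries and differed by -0.37 there (difference between tissues -1.07, adjusted p = 0.0137). Mast2 differed by 0.17 (1.28, adjusted p = 0.00226), Ypel4 by 0.05 (-1.62, adjusted p = 0.00386) and Ctnnal1 by 0.36 (-2.03, adjusted p = 0.00288). Ypel4 was low in the pineal gland too, at 1.13, 0.668, 0.967 and 0.688 FPKM at ZT13, ZT15, ZT23 and ZT1. For Kcnv2 and Ypel4 such levels leave little room for a pineal difference on the FPKM + 1 scale. Slc6a6 and Mak had opposite directions, higher at dusk in the pineal gland (0.73 and 0.74) and higher at dawn in the retina (-0.76 and -0.62), with differences of -1.49 and -1.36 (adjusted p = 0.00112 and 0.000854). The largest differences between the tissues belonged to Slc15a1, Aanat, Atp7b, Fcer1a and Hhip, which were higher at dawn in the pineal gland by 4.35 or more on the log2 scale. Of these, Aanat and the copper transporter Atp7b (2.78 and 3.35 FPKM at dusk, 10.3 and 6.97 at dawn, -1.22, adjusted p = 0.00946) were also called higher at dawn in the retina. Atp7b was lost with the pineal error (adjusted p = 0.114) and without the filter (0.0901).

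**Figure D5:**
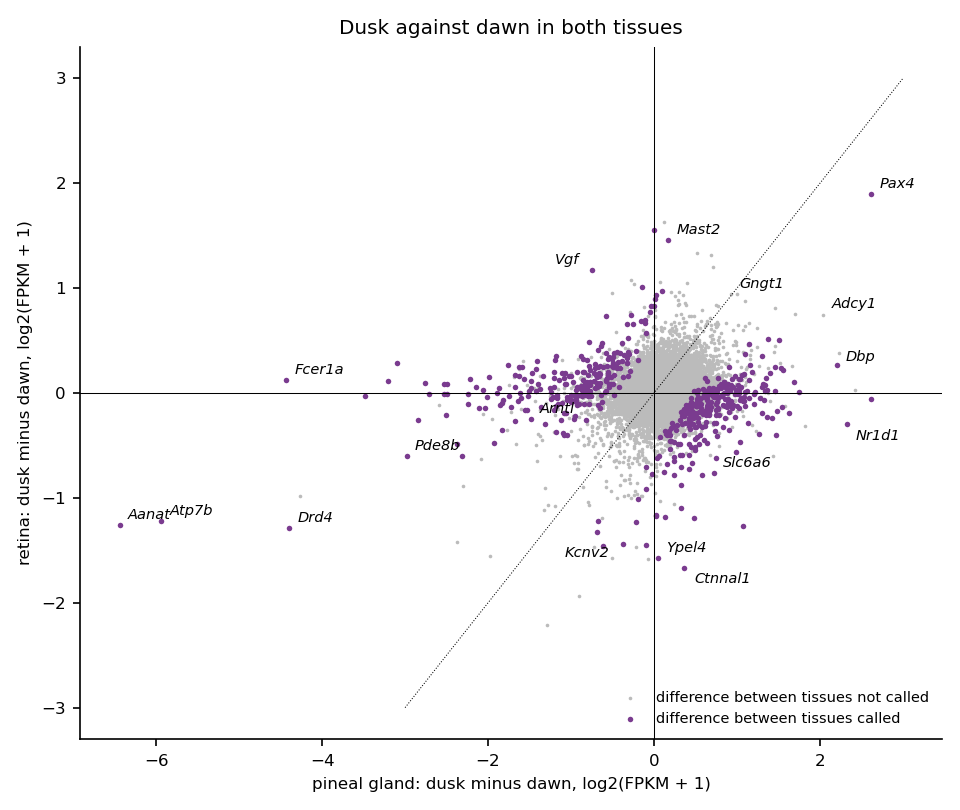
Dusk minus dawn differences in the retina (vertical axis) against those in the pineal gland (horizontal axis), both as log2 of FPKM + 1. Each point is a gene tested in the retina, purple where the difference between the tissues was called; Aanat, Atp7b and Drd4 lie far to the left and Nr1d1 and Dbp far to the right near the retina's 0 line, and the dotted line marks equal differences.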

How the data were processed

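Polyadenylated RNA of rat retinas at ZT13, ZT15, ZT23 and ZT1 was compared, with the pineal libraries of the same times for the test between tissues. The authors deposited FPKM per RefSeq transcript, in 1 table; TopHat 1.3.1, Cufflinks 1.2.0 and rn4 are listed, without roles, in the submitters' processing notes. For strandedness the sources used here give nothing. Overlapping genes on opposite strands therefore cannot be told apart. No counts were used, so exact depth is unknown, and a relative depth was estimated from the lowest olfactory receptor values. By construction FPKM is relative to each library's total.

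Rows were summed per gene ID (16932 transcripts, 16472 genes), and the filter kept genes reaching 1 FPKM in 2 or more of the 4 libraries. A gene below 1 FPKM at dusk or at dawn could thus enter the test through the other side alone. The test used limma 3.58.1 (R 4.3.3) on log2(FPKM + 1) values (trend, 2 residual and 6.20 prior degrees of freedom), two-sided, Benjamini-Hochberg adjusted. Figures and summaries used Python 3.11.15. The fit was tested on simulated data. Named genes were the 12 largest called differences per direction with groups apart, up to 4 members of each list, a fixed set of clock, signalling and photoreceptor genes, and the 5 largest differences from the pineal gland; others are marked as noted later. The members and lists were chosen with earlier results of these data known. List genes absent from the table, such as Nr1d2, were not analysed here, and some genes are counted in lists but not reported singly. Alternatives changed the pseudocount, filter, scaling, error estimate, trend, covariates, transcript summing and each library in turn.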

Additional observations from a re-analysis of the deposited data

Results flagged for a closer look

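Each gene here showed a dusk to dawn difference in the retina that differed from that in the pineal gland, by limma's test of the difference itself in 8 libraries (adjusted p under 0.05). Values are the retina difference minus the pineal difference on the log2(FPKM + 1) scale. They come from the genes named in the report and count no others.

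Among genes that the retina comparison called, the value was 1.28 for Mast2, 1.92 for Vgf, 0.78 for Asns, 0.86 for Gucy2e, 1.31 for Dio2 and 0.91 for Ccng1, which were more towards dusk in the retina. It was -2.03 for Ctnnal1, -1.62 for Ypel4, -0.84 for Pde8a, -1.36 for Mip, -1.07 for Kcnv2 and -0.64 for Ptprn, which were more towards dawn in the retina. So were Sel1l (-0.62), Pfkp (-0.97), Gpi (-0.55), Cplx4 (-0.84), Rcvrn (-1.02), Bbs4 (-0.55), Esrrb (-0.82), Slc6a6 (-1.49), Mak (-1.36) and Aqp1 (-1.21). Pax4 (-0.72) and Guca1a (-1.004) were higher at dusk in the retina by less than in the pineal gland. Drd4 (3.11), Aanat (5.18), Pde8b (2.38) and Atp7b (4.72) were higher at dawn in the retina by less than in the pineal gland. Mip, Kcnv2 and Esrrb stood below 1 FPKM in each of the 4 pineal libraries. Vgf, Ypel4, Dio2 and Rcvrn stood at no more than 1.54 FPKM there. Such levels leave little room for a pineal difference on this scale. Adjusted p lay closest to the threshold for Mip (0.0491), Cplx4 (0.0483) and Bbs4 (0.0464).

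Among clock genes the value was 1.23 for Arntl, 0.92 for Npas2, 0.83 for Cry1, -2.62 for Nr1d1, -1.94 for Dbp and 1.03 for Nfil3, whose retina differences did not pass. Slc15a1 (6.13), Fcer1a (4.56) and Hhip (4.46) were called higher at dawn in the pineal gland and not in the retina, where Slc15a1 and Hhip stood at no more than 0.0606 and 0.304 FPKM and were not tested alone. For Mir3556b the value was 1.56; it was listed at 0 in both dawn retina libraries, so this number depends on the pseudocount and is no bound.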

How the results depend on the processing

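The counts of genes called higher at dusk and at dawn were 124 and 172. They were 24 and 34 without the filter on low values (13337 genes tested), 45 and 66 with the error shared with the pineal libraries, 80 and 77 without the mean-variance trend, and 212 and 268 with light as a covariate. Leaving out each library in turn gave 27 to 441 at dusk and 57 to 386 at dawn. Other alternatives stayed within 1.5 times. Genes at least 1.5-fold apart numbered 45 and 58; they were 102 and 84 at a pseudocount of 0.1, 15 and 34 at 5 and 25 and 51 with a filter of 5 FPKM, and single libraries left out gave 62 to 113 and 83 to 109. The differing genes between the tissues ranged from 149 to 1134 without single libraries. Quantile normalization kept 83 of the 124 dusk calls and 113 of the 172 dawn calls, and median ratio scaling 111 and 164. Of 75 named genes called, 20 passed in every alternative run. Signs turned for genes near 0 or with a wide spread: Npas2 (-0.17 to 0.11 without single libraries), Per2 (-0.0067 after quantile normalization), Fos (-2.17 to 1.17 without single libraries) and Egr1 (0.0552 at a pseudocount of 5, -2.88 to 2.73 without single libraries). The cause was not tested. No paired analysis was possible because the labels give no replicate numbers; pairing the libraries by light state is the fit with light as a covariate, given above. With 1 library per time and unknown depth, counting error of genes near 1 FPKM could not be separated from the spread between pools. A library left out leaves 1 on its side, which is assumed to vary like the other side.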
